A study of Mus musculus with 12 samples.

Results

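The cholesterol synthesis genes Hmgcs1, Idi1, Fdps, Sqle, Lss, Cyp51 and Insig1 were examined in the back skin of mice treated with a hair growth agent, a cactus extract or vehicle. The members were all probes whose gene name in the array files is one of these symbols. They were 7 of 27373 gene names and 16 of 41174 probes. Although the group was labelled as synthesis and uptake, it holds no uptake receptor: 6 members are enzymes of synthesis and Insig1 is a regulator. Uptake genes are therefore described only among the other genes of the pathway.

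RNA came from whole back skin of male C57BL/6J mice, 8 weeks old, whose backs were shaved before treatment began. The mice received 200 µL per day of MXD 3% (minoxidil, a hair growth drug), N-CE 10% (a cell extract of the cactus Notocactus ottonis obtained under cold vacuum) or VC (the vehicle alone, a mixture of propylene glycol, ethanol and water that all groups received). Skin was sampled at 1W, 2W and 3W, and RNA of 6 mice was pooled in each group. On every array a treated pool competed with the VC pool of that week, and a second array repeated the pair with Cy3 and Cy5 reversed, giving 6 comparisons on 12 arrays (2 each). A comparison thus holds 1 treated pool and 1 VC pool. Its SD is over the 2 arrays of the dye swap and measures technical spread, not the spread between mice. The 4 arrays of a week shared a slide and a VC pool, so that week and slide cannot be told apart and the MXD and N-CE comparisons of a week share their control. In whole skin, fewer cells of a type and less RNA per cell cannot be told apart either.

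Cholesterol is built from acetyl-CoA through mevalonate, isoprenoid phosphates, squalene and lanosterol. When sterols run low in the endoplasmic reticulum, the protein SCAP carries the transcription factor SREBP2 to the Golgi, where it is cut, and the released part turns on the synthesis enzymes and genes of uptake. INSIG proteins hold SCAP back when sterols are plentiful, and Insig1 is itself a target of SREBP, so that the gene is part of a feedback loop. In skin, cholesterol is made in the epidermis for the permeability barrier and in the sebaceous gland for sebum.

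The array reads each gene through 60-base probes. Those of 4 members cross an exon junction, since they span more genome than their own length, and they are printed because they read spliced mRNA; the Insig1 probe among them is 1 of the 2 that were called. They are given 5′ to 3′ in lower case, with positions on mm9, the build of the array files.
Insig1, A_52_P393392, chr5:28401146-28401618, plus strand: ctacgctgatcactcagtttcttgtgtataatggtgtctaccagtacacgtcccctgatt
Idi1, A_52_P441634, chr13:8886802-8887206, plus strand: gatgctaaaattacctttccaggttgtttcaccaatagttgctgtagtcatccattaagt
Fdps, A_51_P379798, chr3:88898812-88898952, minus strand: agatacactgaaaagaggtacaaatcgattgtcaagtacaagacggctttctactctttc
Cyp51, A_51_P485791, chr5:4092033-4092439, minus strand: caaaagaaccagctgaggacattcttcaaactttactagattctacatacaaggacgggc
The second Insig1 probe, A_51_P290207, lies at chr5:28404246-28404305, downstream on the same strand. The 3 Hmgcs1 probes are placed by the array files on sequence of chromosome 13 without a fixed place in mm9. The only Sqle probe lies at chr15:59162384-59162443. The brightest Lss probe, at chr10:76019513-76019572, was designed on an Ensembl transcript and lies downstream of both Lss probes that match the RefSeq transcript.

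Upstream sequences of 250 bases were taken from RefSeq (GRCm38.p6) for Hmgcs1, Idi1, Lss, Cyp51 and Insig1, and none was used for Sqle and Fdps. These motifs were searched on both strands: TCACNCCAC, a form of the sterol regulatory element bound by SREBP, CCAAT, bound by NF-Y, and GGGCGG, bound by Sp1. The Insig1 and Hmgcs1 sequences are shown, the former for the called member and the latter because it was the only one of the 5 to hold TCACNCCAC; matches are in capitals, and a match on the other strand appears as the reverse complement (ATTGG or CCGCCC).
Insig1, chr5:28071162-28071411, plus strand: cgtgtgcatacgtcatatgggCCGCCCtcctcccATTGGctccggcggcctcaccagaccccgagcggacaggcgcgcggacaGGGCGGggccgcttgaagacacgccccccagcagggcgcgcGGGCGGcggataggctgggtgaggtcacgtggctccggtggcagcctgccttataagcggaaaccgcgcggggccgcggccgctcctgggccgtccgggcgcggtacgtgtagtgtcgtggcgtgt
Hmgcs1, chr13:119690101-119690350, plus strand: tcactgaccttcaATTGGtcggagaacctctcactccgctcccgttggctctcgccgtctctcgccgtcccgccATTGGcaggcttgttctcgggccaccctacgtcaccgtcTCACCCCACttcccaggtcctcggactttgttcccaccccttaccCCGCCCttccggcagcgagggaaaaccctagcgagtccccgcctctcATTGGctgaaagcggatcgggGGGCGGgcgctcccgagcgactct
TCACNCCAC was found in 1 of these 5 upstream sequences and in 1.05% of the 32851 in the table. CCAAT was found in 5 of 5 and in 33.8% of all, and GGGCGG in 5 of 5 and in 32.7% of all. These are matches of letters and not sites shown to be bound.

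All 16 probes were well above background in both channels on all 12 arrays, and no spot was saturated. A probe was called where the error-model P of the authors' software was below 0.01 on each array of the swap, the direction was shared and the mean fold was above 1.5 or below 0.75 (log2 above 0.58 or below -0.42). At MXD 2W, 5.79% of the tested probes were called higher and 8.36% lower, the most of any comparison. At MXD 1W these shares were 0.995% and 1.11%, at MXD 3W 0.226% and 0.253%, at N-CE 1W 0.434% and 2.21%, at N-CE 2W 0.0987% and 0.074%, and at N-CE 3W 0.219% and 0.201%. The measured skin held the keratins of epidermis and hair shaft, while of 3 liver genes Alb was above background on all arrays at low intensity and Apoa2 in no channel.

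Of the 7 members, only Insig1 was called, and only at MXD 2W, where both of its probes rose. None of the 6 enzymes was called in either direction in any comparison. Of the 42 gene by comparison values, each from the brightest probe of the gene, 41 lay within 0.5 of 0 on the log2 scale. The 36 enzyme values among them ranged from -0.38 to 0.13. For 18 of these 36 the mean was smaller than the SD of its dye swap. Over all 14 probes of the enzymes the range was -0.57 to 0.35, and the lowest value, past the fold threshold, was not called. A single called gene among 7 is to be read beside the 5.79% of all probes called higher at MXD 2W.

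**Figure D1:**
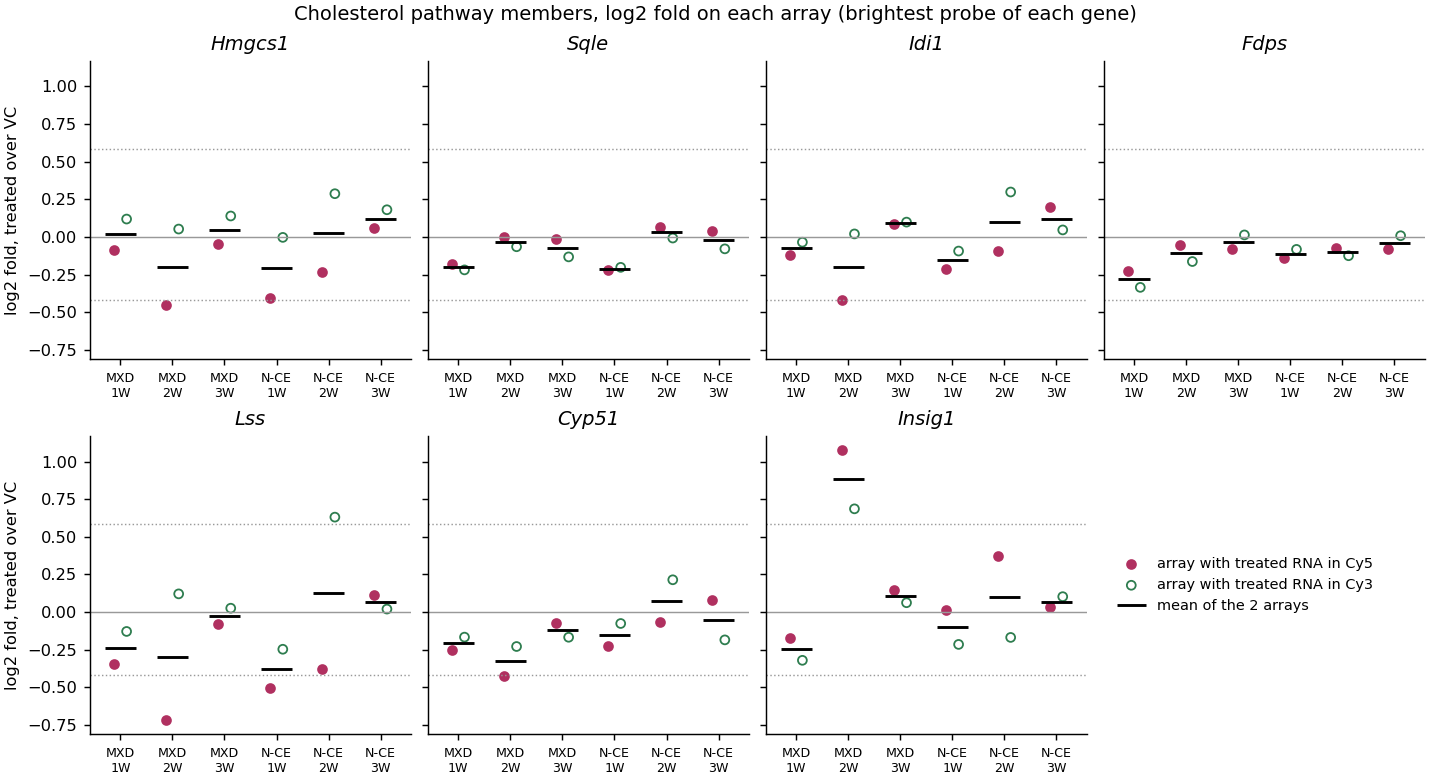
The log2 fold of treated over VC (vertical axis) on each array, by comparison (horizontal axis), for the brightest probe of each of the 7 members. Filled points are arrays with treated RNA in Cy5, open points arrays with treated RNA in Cy3, black bars the mean of the 2 arrays, and dotted lines the fold thresholds of 1.5 and 0.75. Insig1 at MXD 2W is the only value with both arrays beyond a threshold, at 1.08 and 0.69.

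Insig1 encodes an endoplasmic reticulum protein that retains SCAP. At MXD 2W, the processed intensity of A_52_P393392 was 616 in VC and 1301 in MXD on the array with MXD in Cy5, and 666 in VC and 1071 in MXD on the array with the dyes exchanged. The log2 folds were 1.08 and 0.69, with a mean of 0.88 ± 0.28 (SD, n = 2 arrays), a fold of 1.84. The second probe read 588 in VC and 1006 in MXD on the former array and 539 and 879 on the latter, a log2 fold of 0.74 ± 0.05 (SD, n = 2 arrays). With normexp and loess in place of the software's ratios the values were 0.69 and 0.57, the latter just short of the threshold. Both MXD readings of each probe were higher than both VC readings of the same arrays.

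At the other times Insig1 stayed below the thresholds. At MXD 1W, A_52_P393392 was lower than VC on both arrays, at -0.17 and -0.32, and A_51_P290207 likewise, at -0.15 and -0.25. At MXD 3W, the means were 0.10 ± 0.06 and 0.07 ± 0.01 (SD, n = 2 arrays). The values under MXD thus changed sign between 1W and 2W, although the difference between weeks was not tested.

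Under N-CE, Insig1 was not called at any week. The brightest probe gave means of -0.10 ± 0.16, 0.10 ± 0.38 and 0.07 ± 0.05 (SD, n = 2 arrays) at the 3 weeks in order. At N-CE 2W the 2 arrays had opposite signs, 0.37 with N-CE in Cy5 and -0.17 with N-CE in Cy3. The mean of 0.88 under MXD and that of 0.10 under N-CE at 2W were measured against the same VC pool.

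On the level scale (log2 of the normalized channel intensity, which may be compared between arrays for a single probe), A_52_P393392 in VC had 4 readings a week, lying in the ranges 8.05 to 8.33 at 1W, 8.05 to 8.74 at 2W and 8.50 to 8.88 at 3W. The pair of MXD readings was 7.95 and 8.01 in the first week, 9.26 and 9.26 in the second, and 8.94 and 8.95 in the third. N-CE read 8.10 and 8.18, 8.13 and 8.33, and 8.56 and 8.65 at the 3 weeks. The MXD 2W readings lay above all other readings of this probe, and at 3W the MXD readings lay above the highest VC reading by less than the range of the VC readings. VC was higher at 3W than at 1W without overlap, which cannot be told apart from the change of slide. As a guide to the technical spread, the VC level of a member on the MXD arrays of a week differed from that on the N-CE arrays, the same RNA, by a median of 0.28 and at most 0.50 on the log2 scale.

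**Figure D2:**
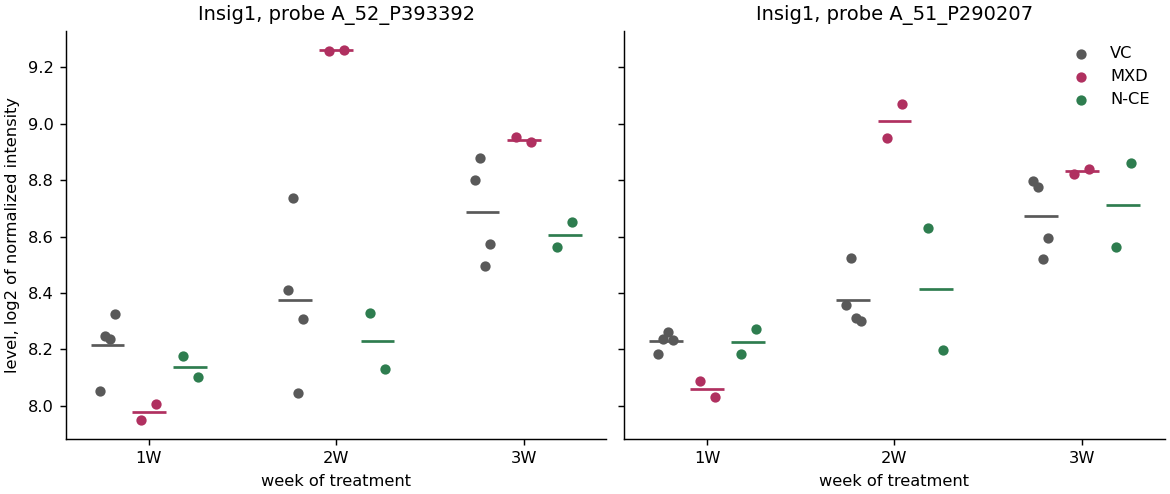
Levels of Insig1 (vertical axis, log2 of normalized intensity) at 1W, 2W and 3W (horizontal axis) for both probes, with a point for each array reading and a bar for the group mean; VC has 4 readings a week and MXD and N-CE have 2. The MXD points at 2W are the highest in each panel, at 9.26 for the probe A_52_P393392.

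Cell type markers moved at the same time, and their part in the Insig1 value was not tested. At MXD 2W, 8 of 8 hair shaft and matrix markers on the array were called higher, and their summed processed intensity was 386600 to 481300 in MXD against 168000 to 173000 in VC. Of the melanocyte markers 5 of 5 were called higher, with sums of 76360 to 88050 against 29930 to 41750. Skeletal muscle markers were called lower in 7 of 7 (119000 to 229400 against 408300 to 475000), adipocyte markers in 5 of 7 (162300 to 206300 against 232900 to 299400) and dermal fibroblast markers in 3 of 5 (207200 to 285100 against 386700 to 508400). Of 6 sebaceous gland markers 1, Awat2, was called lower, and the sums were 25370 to 32270 in MXD and 33340 to 33980 in VC. Epidermal markers were called lower in 4 of 7 and higher in 1, Ivl. Of the macrophage and leukocyte markers 2 of 5, Ptprc and Emr1, were called lower (9248 to 12140 against 16940 to 17280). No list stood at or near 0 in either group except liver, whose sum did not exceed 298.

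The early enzymes Hmgcs1, Idi1 and Fdps carry the path to farnesyl diphosphate. Hmgcs1, which makes HMG-CoA, was close to VC at MXD 1W on its brightest probe, with arrays at -0.08 and 0.12. At MXD 2W its arrays read -0.45 and 0.05, a mean of -0.20 ± 0.36, and at MXD 3W -0.05 and 0.14, a mean of 0.05 ± 0.13 (SD, n = 2 arrays). The means for N-CE were -0.20 ± 0.29, 0.03 ± 0.37 and 0.12 ± 0.09 in the order of the weeks. The array with treated RNA in Cy5 read lower than its partner in all 6 comparisons. The 3 probes of Hmgcs1 did not move alike: at MXD 1W the dimmer probe A_52_P388072 gave -0.52 ± 0.25 and A_52_P119039 gave 0.10 ± 0.13, and at MXD 2W they gave 0.21 and 0.35. The former was beyond the P threshold at MXD 1W on the array with MXD in Cy5 only and was not called.

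Idi1, the isomerase that interconverts the isopentenyl and dimethylallyl diphosphates, differed from VC by at most 0.20 on the log2 scale in mean on its brightest probe. At 1W its arrays were below 0 under both treatments, at -0.12 and -0.03 for MXD and at -0.21 and -0.09 for N-CE. At 2W they had opposite signs, at -0.42 and 0.02 for MXD and at -0.10 and 0.30 for N-CE. At 3W all 4 arrays were above 0, with means of 0.09 ± 0.01 for MXD and 0.12 ± 0.11 for N-CE (SD, n = 2 arrays). The exon junction probe printed above gave 0.15 ± 0.04 and 0.21 ± 0.11 at 3W.

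Fdps encodes farnesyl diphosphate synthase, from whose product the sterol and isoprenoid branches part. Its junction probe, which is also its brightest, was below 0 on both arrays at MXD 1W (-0.22 and -0.33), MXD 2W (-0.05 and -0.16), N-CE 1W (-0.14 and -0.08) and N-CE 2W (-0.07 and -0.12). The largest of these means was -0.28 ± 0.08 at MXD 1W, a fold of 0.825, and at 3W the means were -0.03 and -0.04. The other Fdps probe, A_52_P593965, reached -0.50 ± 0.06 at N-CE 1W (SD, n = 2 arrays), past the fold threshold but not past that on P, and -0.03 at MXD 1W.

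Sqle, Lss and Cyp51 act after squalene. Sqle, squalene epoxidase, is an oxygen-dependent control point of the path. Its single probe was lower than VC on all 4 arrays at 1W, at -0.18 and -0.22 for MXD and -0.22 and -0.20 for N-CE. These means of -0.20 ± 0.03 and -0.21 ± 0.01 exceeded the SD of their dye swaps but stayed inside the fold thresholds. At 2W and 3W the Sqle means lay between -0.07 and 0.03.

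Lss, lanosterol synthase, closes squalene epoxide into the sterol ring system. Its brightest probe was lower at 1W on all 4 arrays, with -0.34 and -0.13 for MXD and -0.50 and -0.25 for N-CE. At 2W the arrays were far apart: MXD read -0.72 in Cy5 and 0.12 in Cy3, and N-CE read -0.38 in Cy5 and 0.63 in Cy3. The means, -0.30 ± 0.59 and 0.13 ± 0.71 (SD, n = 2 arrays), were smaller than their SD. The probe A_52_P168028 was apart in the other direction at 2W, with 0.02 and -0.77 for MXD and 0.15 and -0.60 for N-CE. Single arrays of Lss at 2W thus passed the thresholds in both directions while no dye swap did. At MXD 1W all 3 Lss probes were below 0 on both arrays, with means of -0.24, -0.44 and -0.57.

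Cyp51, the lanosterol demethylase, was lower than VC on both arrays of every MXD comparison on its brightest probe. Its means for the 3 weeks were -0.21 ± 0.06, -0.33 ± 0.14 and -0.12 ± 0.07 (SD, n = 2 arrays), none of them called. The other 2 Cyp51 probes were also negative in mean at MXD 1W and 2W, and both were at 0.04 at MXD 3W. Under N-CE the brightest probe gave -0.15 ± 0.10, 0.07 ± 0.20 and -0.05 ± 0.19 at the 3 weeks.

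Most members were slightly lower than VC at 1W under both treatments. At MXD 1W, 6 of 7 genes and 13 of 16 probes were below 0, with a median over the genes of -0.21 against -0.01 for all tested probes. The medians of the 2 arrays were -0.18 and -0.17, and the median of the dye-swap means lies outside both because a different gene is in the middle. At N-CE 1W, 7 of 7 genes and 14 of 16 probes were below 0, with a median of -0.15 ± 0.09 (SD of the 2 array medians) against 0.02 for all probes. The interval from the 25th to the 75th percentile of all probes ran from -0.17 to 0.15 at MXD 1W and from -0.14 to 0.16 at N-CE 1W. No member was called at 1W, and both comparisons were made against the same VC pool.

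Cell type markers differed at 1W as well, and their part in the members' shift was not tested. At MXD 1W, 2 of 6 sebaceous markers, Awat2 and Far2, were called lower, with summed intensities of 38040 to 39790 in MXD and 50060 to 52480 in VC, and 3 of 8 hair shaft and matrix markers and 3 of 4 melanocyte markers were called higher. Skeletal muscle markers were called lower in 7 of 7 at MXD 1W (190200 to 209900 against 350800 to 364800), and 7 of 7 adipocyte markers were below 0 without a call. At N-CE 1W, 0 of 6 sebaceous markers were called, with sums of 38050 to 42730 in N-CE and 46340 to 50470 in VC. Of these markers 4 were below 0, while Awat2 and Far2 were at 0.009 and 0.004 on the log2 scale. In the same comparison 8 of 8 hair shaft and matrix markers were called lower (7702 to 9401 against 49840 to 50920), as were 4 of 4 melanocyte markers (5546 to 5745 against 17190 to 18750). Adipocyte markers were above 0 in 7 of 7 at N-CE 1W without a call (207600 to 222100 against 173900 to 177400). Skeletal muscle markers were called in 0 of 7 there, with 6 below 0.

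At 2W and 3W the medians of the members were -0.20 ± 0.31 at MXD 2W, -0.03 ± 0.05 at MXD 3W, 0.07 ± 0.20 at N-CE 2W and 0.07 ± 0.03 at N-CE 3W (SD of the 2 array medians), where all probes had medians of 0.05, 0.00, 0.00 and 0.00. At 2W the dye swaps disagreed in sign for 3 of 7 genes under MXD and 6 of 7 under N-CE. The median SD of a member was 0.28 in both 2W comparisons, against 0.23 and 0.21 for all probes, and between 0.07 and 0.10 in the other 4.

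**Figure D3:**
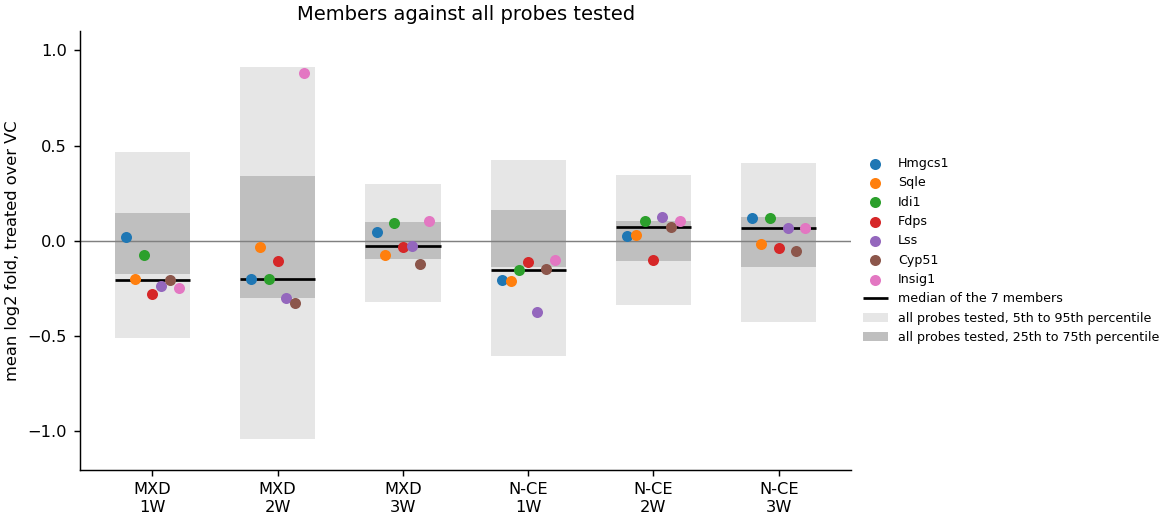
Mean log2 fold of treated over VC (vertical axis) of the 7 members in the 6 comparisons (horizontal axis), as coloured points with their median as a black line, over the range of all tested probes from the 5th to the 95th percentile (light) and from the 25th to the 75th (dark). Every member lies within the light range, Insig1 at MXD 2W close to its upper end (0.88 against 0.91).

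Weeks were then taken as replicates to ask whether a member differed from VC over the whole course. Such a test asks for a fold of the same sign in each week. A change confined to 1 week, as called for Insig1 under MXD, enters its spread and cannot be decided by it. In limma with Benjamini-Hochberg adjustment over 24647 probes, 0 probes passed an adjusted p of 0.05 for MXD, N-CE or MXD minus N-CE (0% in each), while 2573, 438 and 1776 had an unadjusted p below 0.05. None of the 16 member probes had an unadjusted p below 0.05, but with so few probes this does not set the members apart. The mean of Insig1 A_52_P393392 over the weeks was 0.25 ± 0.23 (SE, n = 3 weeks) under MXD, with an adjusted p of 0.668 by limma, and it was higher than VC in 2 of 3 weeks. Under N-CE it was 0.02 ± 0.08 (SE, n = 3 weeks). The difference of MXD minus N-CE was 0.22 ± 0.21 for this probe, with an adjusted p of 0.814 by limma. The lowest adjusted p of a member was that of Lss A_52_P168028 under MXD, 0.483 by limma, at -0.33 ± 0.14 (SE, n = 3 weeks). In simulated data with the spread of these weeks, the fit for MXD recovered 113 of 200 probes shifted by 1.5 on the log2 scale. Smaller shifts, such as those of all members, were not simulated, so that this recovery says nothing of shifts of their size.

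The other genes of the pathway were taken from 6 lists with 49 genes on the array, of which 46 to 49 were measured in a comparison. At MXD 2W, 3 of 49 were called higher and 6 lower, with a median of -0.11 against 0.05 for all probes. Of all tested probes, 5.79% were called higher and 8.36% lower in that comparison. At MXD 1W and at N-CE 1W, 1 gene was called in each direction, and none was called at MXD 3W, N-CE 2W or N-CE 3W. The shares of all probes called higher and lower were 0.995% and 1.11% at MXD 1W and 0.434% and 2.21% at N-CE 1W.

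Of the enzymes of synthesis that are no members, 2 of 17 were called higher and 1 lower at MXD 2W, and none in the other comparisons. The counts at MXD 2W are to be read beside the 5.79% of all probes called higher and the 8.36% called lower. Idi2, a paralog of Idi1, rose by 1.33 ± 0.17 at MXD 2W, from intensities of 192 and 146 in VC to 447 and 400 in MXD. Lbr, the lamin B receptor, which also has sterol reductase activity, rose by 0.61 ± 0.09, and by 0.55, short of the threshold, with normexp and loess. Msmo1, the methylsterol monooxygenase that acts downstream of Cyp51 and is named Sc4mol in the array files, fell by 0.68 on the log2 scale, with arrays at -0.77 and -0.59. Other enzymes of the path did not pass the test: Mvd, mevalonate diphosphate decarboxylase, was at -0.01 ± 0.33, Fdft1, squalene synthase, at -0.07 ± 0.51 and Dhcr7, a late sterol reductase, at -0.17 ± 0.06 at MXD 2W (SD, n = 2 arrays). At MXD 1W the early list had a median of -0.16 and the late list one of -0.15, with Fdft1 at -0.44 ± 0.27 and Mvd at -0.37 ± 0.03 (SD, n = 2 arrays).

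Of the 10 regulators, of which 8 to 10 were measured in a comparison, none was called in any. The largest shares of all tested probes called were 5.79% higher and 8.36% lower, at MXD 2W. Srebf2, which encodes SREBP2, was at -0.16 ± 0.12, 0.17 ± 0.04 and 0.08 ± 0.18 at the 3 weeks of MXD and at -0.34 ± 0.14, 0.08 ± 0.04 and 0.24 ± 0.22 at those of N-CE (SD, n = 2 arrays). Its arrays had the same sign in 5 of the 6 comparisons and were all below 0 at 1W.

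Among 8 genes of uptake and transport, Vldlr, the very low density lipoprotein receptor, was the only one called. It fell by 1.19 on the log2 scale at MXD 2W, with arrays at -1.46 and -0.93, and its second probe fell by 1.24. Of all tested probes, 8.36% were called lower in that comparison.

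The efflux, storage and oxysterol genes held calls in both directions. Of all tested probes, 5.79% were called higher and 8.36% lower at MXD 2W. These shares were 0.995% and 1.11% at MXD 1W and 0.434% and 2.21% at N-CE 1W. At MXD 2W, Soat2, which esterifies cholesterol, rose by 1.27 ± 0.13, from 700 and 638 in VC to 1805 and 1448 in MXD. Cyp27a1 and Cyp7b1, hydroxylases of oxysterol metabolism, fell by 0.70 and by 1.17 on the log2 scale in the same comparison. Cyp7b1 had been called higher at MXD 1W, at 0.72 ± 0.02, a value of 0.47 and below the threshold with normexp and loess. At N-CE 1W, Ch25h, cholesterol hydroxylase, rose by 0.69 ± 0.03 (SD, n = 2 arrays), or by 0.38 and short of the threshold with normexp and loess. In the same comparison Soat2 was not well above background in N-CE on either array and at least 1.36-fold lower than VC, the bound being taken from the dimmest probes above background.

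Fatty acid synthesis, driven mainly by SREBP1, held lower values at 1W and 2W of MXD. Of all tested probes, 8.36% were called lower at MXD 2W and 1.11% at MXD 1W. At MXD 2W, Fasn, fatty acid synthase, fell by 0.84 and Scd1, a desaturase, by 0.92 on the log2 scale, and the second Fasn probe fell by 0.82. At MXD 1W, Elovl6, a fatty acid elongase, fell by 0.67, and the list had a median of -0.43 with 5 of 6 genes below 0. No gene of this list was called under N-CE, where at most 0.434% of all tested probes were called higher and 2.21% lower. Adipocyte markers had medians of -0.31 at MXD 1W and -0.79 at MXD 2W. Their part in the values of this list was not tested.

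**Figure D4:**
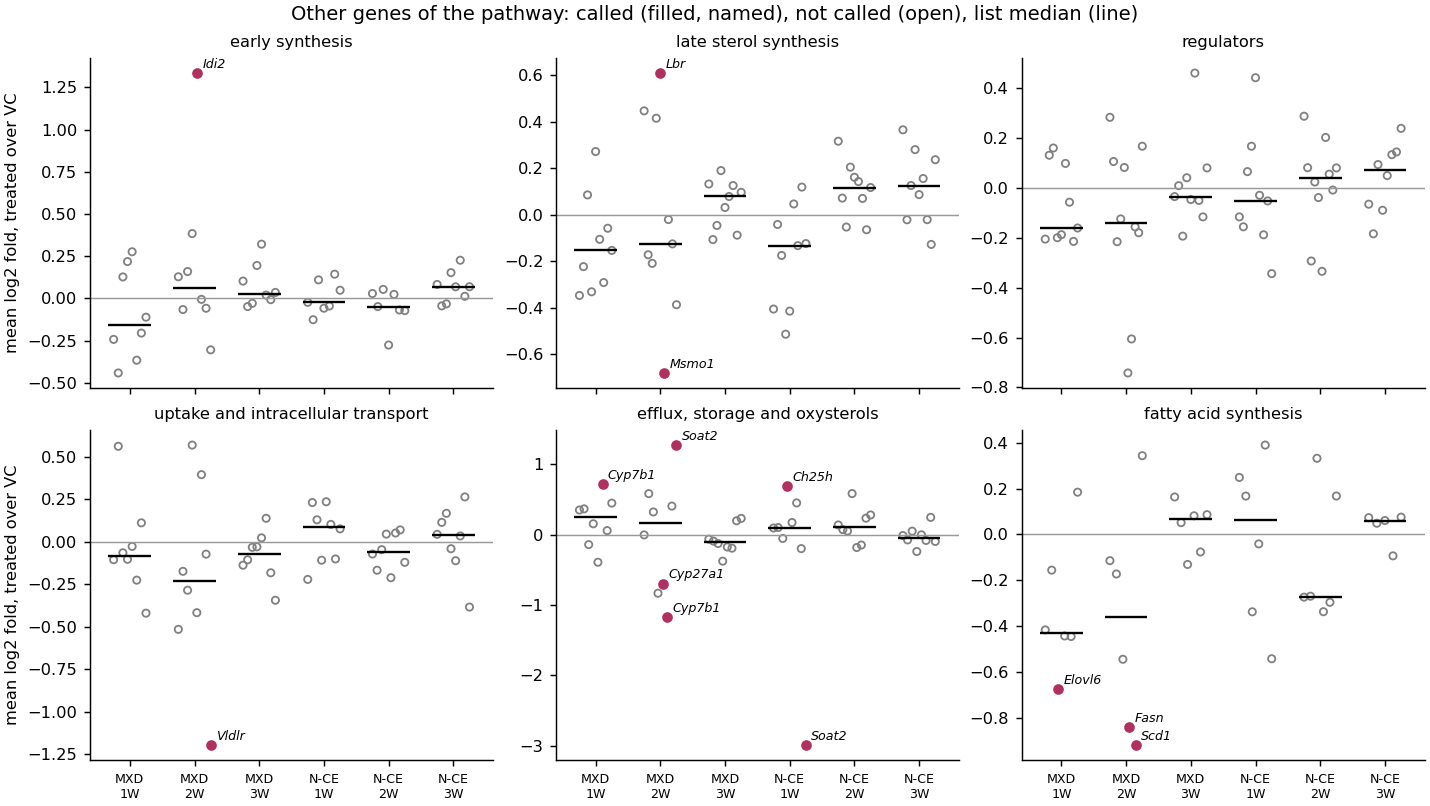
Mean log2 fold of treated over VC (vertical axis; each row and panel has its own scale) of the other pathway genes in 6 lists, by comparison (horizontal axis). Filled and named points were called, open points were not, and black lines are list medians; Soat2 at N-CE 1W is drawn at its measured ratio, for which only the bound of 1.36-fold holds. Most called genes are at MXD 2W, 3 higher and 6 lower, where 5.79% of all tested probes were called higher and 8.36% lower.

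The genes most like the members were sought by the Pearson correlation over the 12 arrays with the mean log2 fold of the 7 members, among 21402 probes above background in both channels throughout. They were Apcdd1 (r = 0.941), Cables1 (0.932), Sema3e (0.926), Pex11g (0.917) and 1700029I15Rik (0.915), the highest coefficients among these 21402 probes. Their log2 folds stayed within -0.39 and 0.72 on every array. None is in the pathway lists, which hold only 49 genes, so their absence there says little. The 12 arrays share slides, VC pools and dye orientations, so the coefficients are descriptions of these arrays only.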

How the data were processed

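The authors pooled RNA of 6 mice per group, hybridized dye-swapped pairs to 2-colour Agilent mouse arrays and processed the scans with Agilent Feature Extraction (12.0.3.1 in the file headers, 11.0.1.1 in the submitters' processing notes). The deposited files hold, per spot, a log10 ratio (Cy5 over Cy3) obtained after subtracting background and normalizing dyes, an error-model p-value, channel intensity raw and processed, and other flags for background and outliers. The deposited series matrix holds the log10 ratio of the 2 processed intensities, as checked at each of the 43379 transcript spots. Of the spots, 57.0% to 65.0% were well above background in Cy3 and 61.3% to 69.6% in Cy5.

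Control spots and 143 to 355 outlier spots per array were left out, ratios were oriented as treated over VC, given as log2, and spots of a probe were averaged. Probes well above background in a channel of the comparison with both ratios present were tested. The call rule used the deposited p-values (below 0.01 on both arrays) and folds above 1.5 or below 0.75. A gene is represented by its brightest probe. Levels are log2 values after normexp (offset 50), loess and quantile scaling of average intensity. With 1 pool per group no test within a week is possible; limma 3.58.1 (R 4.3.3; Python 3.11.15, pandas 2.3.3) was fitted over 3 weeks. The call and limma steps were tested on simulated data. The 7 members and the gene lists were chosen with earlier results of these data known.

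Genes named were the members, listed genes called in any comparison, Fdft1, Mvd, Dhcr7 and Srebf2, and the 5 genes most like the members; some other genes of this rule are not reported here. Of the 16 member probes, 13 matched a RefSeq accession of the same symbol. Alternatives covered the P criterion, the folds, normexp with loess, centring, outlier spots, the matrix, probe choice, dim probes, single arrays and single weeks.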

Additional observations from a re-analysis of the deposited data

Results flagged for a closer look

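Insig1 was called higher at MXD 2W, with a log2 fold of 0.88, and both arrays of MXD 1W pointed the other way, with a mean of -0.25. Cyp7b1 was called in opposite directions in the same treatment, at 0.72 at MXD 1W and -1.17 at MXD 2W; with normexp and loess these were 0.47 and -0.70, and the former is not past the threshold. Neither difference between weeks was tested, as each week is 1 pool per group on its own slide.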

How the results depend on the processing

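The rise of Insig1 at MXD 2W kept its direction under every alternative run, between 0.57 and 1.08 on the log2 scale over both probes, and its brightest probe stayed called, while A_51_P290207 at 0.57 with normexp and loess lost its call. With a single array of the dye swap, counts of called members ranged from 0 to 1 lower at MXD 2W (Lss on the Cy5 array) and from 0 to 1 higher at N-CE 2W (Lss on the Cy3 array), and medians from -0.18 to -0.17 at MXD 1W, -0.42 to 0.02 at MXD 2W, -0.048 to 0.026 at MXD 3W, -0.22 to -0.09 at N-CE 1W, -0.07 to 0.21 at N-CE 2W and 0.021 to 0.059 at N-CE 3W. The MXD 1W median of the members was -0.19 with normexp and loess, -0.20 over all probes of a gene and -0.20 after centring; that of N-CE 3W was 0.033 over all probes of a gene. Of the other pathway genes, normexp with folds alone called 0 higher and 2 lower at MXD 1W, 11 lower at MXD 2W, and 0 higher and 4 lower at N-CE 1W; the calls of Cyp7b1 at MXD 1W, Lbr at MXD 2W and Ch25h at N-CE 1W were lost, and Idi2, Cyp27a1 and Cyp7b1 at MXD 2W kept theirs at 0.83, -0.44 and -0.70. Their medians were -0.10, -0.13 and -0.025 at the 3 weeks of MXD with normexp, and over all probes of a gene -0.12, -0.0097 and -0.035 at those weeks, -0.0003 at N-CE 1W and 0.029 at N-CE 3W. Over all probes with a ratio, 0.304% were called at MXD 3W in place of 0.480%. Leaving out week 3, limma called 1175 of 24647 probes for MXD minus N-CE and 0 of the 16 member probes. That fit rests on 2 weeks per probe, and with so few member probes a count of 0 does not set the members apart. The causes were not tested. MXD and N-CE were paired by week in the limma test of their difference. Pools of 6 mice without replicates and shared VC pools limit what these values can show. So do dye differences at 2W, where the arrays of a swap lay as far apart as -0.38 and 0.63 on the log2 scale (brightest Lss probe at N-CE 2W).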
